A study of Mus musculus with 42 samples.

Results

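The 10 genes described here are expressed by granulocytes: 6 are neutrophil genes (Retnlg, S100a8, S100a9, Ngp, Camp and Csf3r) and 4 are eosinophil genes (Epx, Prg2, Il5ra and Alox15). They were chosen by symbol, as the probe sets to which the array annotation gives only that symbol. Each of the 10 had 1 probe set, and all 10 were among the 19938 genes measured. Retnlg, the neutrophil gene encoding resistin-like gamma, rose in uteri that lacked the Hoxd genes. In uteri lacking the Hoxa genes and 1 copy of the Hoxd genes its mean was 2.40 log2 units above wild type. That difference fell short of the threshold of 0.05 (limma adjusted p = 0.0541). S100a8, which encodes a calprotectin subunit, rose in vasa deferentia that lacked the Hoxa genes. For both genes the calls against wild type were lost when some single arrays were left out. For Retnlg in uteri with only the Hoxd genes mutated, leaving out any 1 array of either group ended the call. Quantile normalisation ended both Retnlg calls against wild type.

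Neutrophils and eosinophils form in the bone marrow, circulate in blood and enter tissues on chemokine signals. Their granule proteins (Ngp and Camp in neutrophils, Epx and Prg2 in eosinophils) are transcribed mainly while the cells mature in the marrow, whereas S100a8, S100a9 and Csf3r remain transcribed in mature neutrophils. The uterus of cycling rodents holds eosinophils, which oestrogen draws in, and neutrophils, whose number changes over the cycle. S100a8, S100a9 and Alox15 are not restricted to granulocytes: epithelia can express all 3, and some macrophages express Alox15.

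Mouse reproductive tracts were measured on whole-transcript arrays, 42 arrays in 14 groups of 3 biological replicates. In uterus and in vas deferens the groups were AKO (Hoxa9,10,11-/-), DKO (Hoxd9,10,11-/-), AKDH (Hoxa9,10,11-/-d9,10,11+/-), AHDK (Hoxa9,10,11+/-d9,10,11-/-) and wild type (WT). Oviduct and caudal epididymis had AKO and WT only. All mice were adults of 3 to 7 months on a mixed CD1/129 background, every female was in diestrus, and the mutations were present in the whole animal, marrow and leukocytes included. AKO and AKDH are called Hoxa-null below, and DKO and AHDK Hoxd-null.

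The deposited values are logarithms, taken as log2, and each probe set was centred so that its median over the 21 female or the 21 male arrays is 0. A value of 1 is therefore 1 log2 unit above the middle array of that sex. Levels cannot be compared between genes or between sexes, and it cannot be seen whether a probe set lies above background. As whole tissue was used, fewer cells of a type and less RNA per cell cannot be told apart. The labelled tissues were distinct by their markers: the mean of 3 epididymis genes was 3.92 to 4.42 in WT epididymis and -1.72 to -1.09 in WT vas deferens, and the mean of 2 oviduct genes was 1.32 to 1.90 in WT oviduct and -0.23 to 0.14 in WT uterus. Of the targeted genes, Hoxa11 was -1.59 to 0.67 in AKO uterus and -1.57 to 0.00 in AKDH uterus, against 1.23 to 2.75 in WT uterus. Hoxd10 was 0.20 to 0.51 in DKO uterus and 0.27 to 0.42 in AHDK uterus, against 0.05 to 0.31 in WT uterus, and the labels do not say whether its probe set covers the altered part. 3 arrays stood apart from their groups over all genes (WT oviduct 2, AKDH vas deferens 3 and AKO epididymis 1), and the called differences of the 10 genes in their groups are also given without them.

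In uterus, Retnlg had the widest range of the 10 genes. Its values were -0.41, -0.28 and 2.39 in AKO uteri, 4.03, 2.55 and 2.84 in DKO uteri, 1.60, 3.19 and 1.47 in AKDH uteri and 3.57, 3.31 and 3.29 in AHDK uteri, against -0.32, -0.29 and -0.33 in WT uteri. All DKO, AKDH and AHDK arrays lay above all WT arrays, while AKO was split, with a single array high. Retnlg rose by 3.45 log2 units in DKO (SE 0.67, limma adjusted p = 0.0397) and by 3.70 in AHDK (SE 0.67, adjusted p = 0.0162), which is 10.9 times and 13 times the WT level if the log base is 2. The difference from WT was 2.40 in AKDH (SE 0.67, adjusted p = 0.0541) and 0.88 in AKO (SE 0.67, adjusted p = 0.79), and neither passed the threshold of 0.05. The DKO call was lost when any 1 of the 3 DKO or 3 WT arrays was left out, with differences of 3.01 to 3.74 and adjusted p of 0.0715 to 0.118. The AHDK call was lost without WT 3 (adjusted p = 0.0577), without AHDK 1 (adjusted p = 0.0847) or without AHDK 3 (adjusted p = 0.0586), and without single arrays the difference stayed between 3.61 and 3.75. Quantile normalisation also ended both calls (3.25, adjusted p = 0.115 in DKO and 2.91, adjusted p = 0.0657 in AHDK), and fitting only the groups compared ended the DKO call (adjusted p = 0.102).

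The promoter of Retnlg is shown because it is the gene with the widest range, and that of Il5ra because its values ran with those of Retnlg across the uterus arrays. Each sequence runs from 250 bases before to 50 bases after the start of the gene, 5′ to 3′ on the gene's strand, from RefSeq (GRCm38.p6). Capitals mark matches on either strand to 3 motifs of factors of granulocyte development: TTGCNNAA for C/EBP, GAGGAA for PU.1 and GATAA for GATA. The promoter table held 8 of the 10 genes, without Prg2 and Alox15.
Retnlg, chr16:48872358-48872657, plus strand: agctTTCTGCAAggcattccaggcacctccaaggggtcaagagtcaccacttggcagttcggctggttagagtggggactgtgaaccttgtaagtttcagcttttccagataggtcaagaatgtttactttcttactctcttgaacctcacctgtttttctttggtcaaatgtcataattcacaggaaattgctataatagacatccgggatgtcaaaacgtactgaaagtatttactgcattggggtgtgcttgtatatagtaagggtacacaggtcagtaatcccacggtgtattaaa
Il5ra, chr6:106748988-106749287, minus strand: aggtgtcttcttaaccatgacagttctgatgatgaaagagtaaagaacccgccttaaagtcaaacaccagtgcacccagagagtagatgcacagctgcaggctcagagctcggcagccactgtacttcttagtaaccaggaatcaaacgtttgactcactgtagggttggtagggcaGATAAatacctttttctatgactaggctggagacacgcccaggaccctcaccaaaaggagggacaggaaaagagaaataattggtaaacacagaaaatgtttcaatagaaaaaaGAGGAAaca
The Retnlg window held 1 C/EBP match and no match to the other motifs, and the Il5ra window held 1 PU.1 and 1 GATA match. Of the 32851 promoter windows in the table, 10.8% held a C/EBP match, 28.3% a PU.1 match and 25.4% a GATA match, so these matches are common and describe the sequence only.

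S100a8, S100a9 and Csf3r were high in only some of the Hoxd-null uteri. S100a8 was -0.15, -0.07 and 0.18 in AKO uteri, 1.50, 0.21 and -0.02 in DKO uteri, -0.06, 0.04 and -0.08 in AKDH uteri and 0.83, 0.05 and 0.44 in AHDK uteri, against 0.05, -0.02 and 0.07 in WT uteri. S100a9, which encodes the other calprotectin subunit, was -0.28, 0.07 and 0.21 in AKO uteri, 1.99, -0.10 and 0.06 in DKO uteri, 0.02, -0.03 and -0.10 in AKDH uteri and 1.36, 0.03 and 0.82 in AHDK uteri, against 0.00, 0.00 and 0.26 in WT uteri. Csf3r, the receptor for granulocyte colony-stimulating factor, was -0.12, -0.26 and 0.00 in AKO uteri, 2.98, 0.45 and 0.64 in DKO uteri, 0.09, -0.05 and 0.18 in AKDH uteri and 2.37, 0.71 and 1.44 in AHDK uteri, against -0.10, 0.09 and 0.51 in WT uteri. For all 3 genes the highest arrays were DKO 1, AHDK 1 and AHDK 3, in that order, and only for Csf3r in AHDK were the mutant arrays all above WT.

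None of the 3 passed the test against WT in any mutant uterus. The largest differences were those of Csf3r, 1.19 in DKO (SE 0.56, adjusted p = 0.341) and 1.34 in AHDK (SE 0.56, adjusted p = 0.194). S100a8 differed by 0.53 in DKO (SE 0.31, adjusted p = 0.453) and by 0.40 in AHDK (SE 0.31, adjusted p = 0.482). S100a9 differed by 0.56 in DKO (SE 0.46, adjusted p = 0.613) and by 0.65 in AHDK (SE 0.46, adjusted p = 0.442). The DKO values rested on DKO 1, without which the differences were 0.06 for S100a8, -0.11 for S100a9 and 0.37 for Csf3r. Without AHDK 1 the AHDK differences were 0.21 for S100a8, 0.34 for S100a9 and 0.91 for Csf3r.

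Ngp, neutrophilic granule protein, and Camp, the cathelicidin precursor, stayed near 0. Across all 15 uterus arrays Ngp ranged from -0.12 to 0.17, apart from 0.63 in AKO 3, which was also the single AKO array with high Retnlg. Camp ranged from -0.20 to 0.24. The differences from WT lay between -0.10 and 0.19 for Ngp and between -0.24 and -0.06 for Camp, and none passed the test, the smallest adjusted p being 0.178 for Camp in AHDK.

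**Figure D1:**
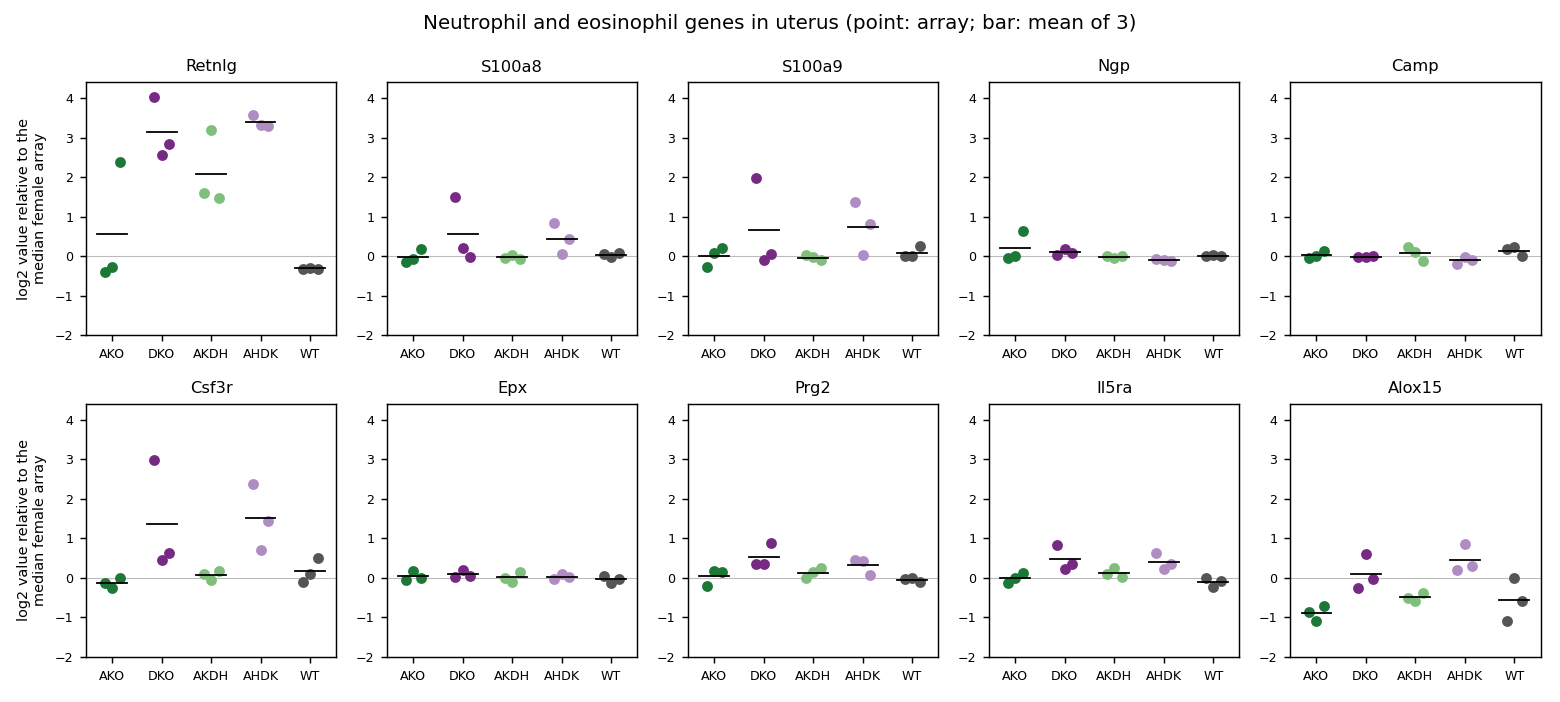
Values of the 10 genes in uterus, 1 panel a gene, with a point for each array and a bar at the mean of the 3 arrays of a genotype (vertical axis: log2 value relative to the median female array). Retnlg lies between 2.55 and 4.03 in all DKO and AHDK arrays and near -0.3 in WT, while S100a8, S100a9 and Csf3r are spread within DKO and AHDK and Ngp, Camp and Epx stay near 0.

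Among the eosinophil genes, Il5ra, Prg2 and Alox15 leaned upward in Hoxd-null uteri without passing the test against WT. Il5ra, the alpha chain of the interleukin-5 receptor, was -0.14, 0.00 and 0.13 in AKO uteri, 0.84, 0.22 and 0.36 in DKO uteri, 0.11, 0.25 and 0.03 in AKDH uteri and 0.62, 0.22 and 0.36 in AHDK uteri, against 0.00, -0.24 and -0.07 in WT uteri. Every DKO, AKDH and AHDK array lay above every WT array. The difference from WT was 0.58 in DKO (SE 0.15, adjusted p = 0.0912), 0.23 in AKDH (SE 0.15, adjusted p = 0.402) and 0.50 in AHDK (SE 0.15, adjusted p = 0.0866).

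Prg2, the eosinophil major basic protein, was -0.20, 0.18 and 0.15 in AKO uteri, 0.36, 0.34 and 0.88 in DKO uteri, -0.01, 0.14 and 0.25 in AKDH uteri and 0.46, 0.43 and 0.06 in AHDK uteri, against -0.02, 0.00 and -0.11 in WT uteri. All 6 Hoxd-null arrays were above the WT arrays, and the difference was 0.57 in DKO (SE 0.16, adjusted p = 0.109) and 0.36 in AHDK (SE 0.16, adjusted p = 0.207). Epx, eosinophil peroxidase, ranged only from -0.12 to 0.21 over the uterus arrays, and its differences from WT were between 0.05 and 0.12.

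Alox15, a lipoxygenase of eosinophils and resident macrophages, was -0.86, -1.09 and -0.72 in AKO uteri, -0.25, 0.61 and -0.04 in DKO uteri, -0.51, -0.58 and -0.39 in AKDH uteri and 0.20, 0.86 and 0.29 in AHDK uteri, against -1.10, 0.00 and -0.59 in WT uteri. The AHDK arrays were above all WT arrays, and the WT arrays were themselves spread from -1.10 to 0.00. The difference from WT was 0.67 in DKO (SE 0.28, adjusted p = 0.276) and 1.01 in AHDK (SE 0.28, adjusted p = 0.0657). The AHDK difference passed the test without WT 2 (1.29, adjusted p = 0.0365).

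**Figure D2:**
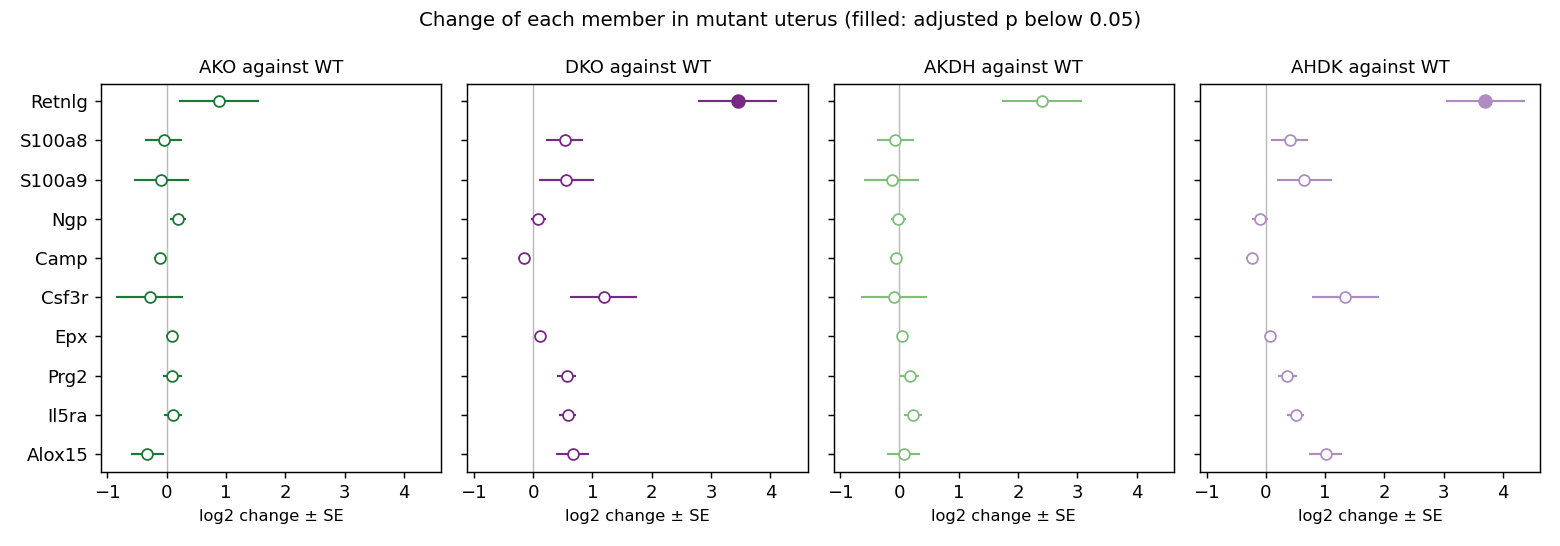
Difference of each of the 10 genes from WT in the 4 mutant uteri (horizontal axis: log2 change with its SE, 3 arrays a group, filled where the adjusted p was below 0.05). Only Retnlg in DKO (3.45) and in AHDK (3.70) is filled, and its AKDH value of 2.40 is open.

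In each of DKO and AHDK uterus 1 of the 10 genes passed the test, and in AKO and AKDH uterus none did. Over all genes the share called was 0.0903% for AKO, 0.973% for DKO, 6.58% for AKDH and 3.53% for AHDK. At an unadjusted p below 0.05, limma had none of the 10 for AKO, 4 for DKO, 1 for AKDH (Retnlg) and 6 for AHDK uterus, where the share over all genes was 9.35% for AKO, 15.3% for DKO, 22.7% for AKDH and 21.4% for AHDK. The median difference of the 10 genes was 0.01 for AKO, 0.57 for DKO, 0.02 for AKDH and 0.45 for AHDK uterus, where the median of all genes was 0.01, 0.01, -0.01 and -0.02 in the same order. In DKO 9 of the 10 differences were above 0 and in AHDK 8 were. All arrays lay above WT for 4 of the 10 genes in DKO (Retnlg, Ngp, Prg2 and Il5ra), where 11.6% of all genes did so, and for 5 in AHDK (Retnlg, Csf3r, Prg2, Il5ra and Alox15), where 14.2% did. In AHDK all arrays lay below WT for 2 of the 10, Ngp and Camp, where 15.4% of all genes did so. In AKDH all arrays lay above WT for 2 of the 10, Retnlg and Il5ra. The share of all genes that did so in AKDH is not given here, so that count is not read as a result. The 4 comparisons share the same WT arrays.

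The Hoxd-null uteri were also compared with the Hoxa-null uteri, a contrast that leaves WT out. Alox15 was higher in Hoxd-null uteri by 0.97 (SE 0.20, adjusted p = 0.0181), and all 6 Hoxd-null arrays (-0.25 to 0.86) lay above all 6 Hoxa-null arrays (-1.09 to -0.39). The Alox15 call held in 19 of 20 alternative settings and was lost without AKO 2 (0.92, adjusted p = 0.0527). Retnlg was higher by 1.94 (SE 0.47, adjusted p = 0.0389), but its groups overlapped through AKDH 2, and the call held in only 8 of 20 settings. AKDH 2 was at 3.19, and AKO 3, at 2.39, lay just below the lowest Hoxd-null array (DKO 2, 2.55). Leaving out 1 array at a time gave Retnlg differences of 1.69 to 2.39 and ended the call for 9 of the 12 arrays; it held without AKO 3, DKO 2 or AKDH 2.

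Csf3r did not pass the threshold in that contrast (1.46, SE 0.39, adjusted p = 0.0551), although its 6 Hoxd-null arrays (0.45 to 2.98) lay above its 6 Hoxa-null arrays (-0.26 to 0.18). Il5ra (0.37, adjusted p = 0.0666), Prg2 (0.34, adjusted p = 0.104), S100a9 (0.71, adjusted p = 0.236) and S100a8 (0.52, adjusted p = 0.2) did not pass either. Thus 2 of the 10 genes were called, both higher, where 4.95% of all genes were called, and 2 of the 10 separated the groups upward, where 1.7% of all genes did. The median difference of the 10 was 0.45, against -0.01 over all genes.

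Across the 15 uterus arrays the 10 genes followed more than one pattern. S100a8, S100a9 and Csf3r ran closely together, with Pearson correlations of 0.97 for S100a8 with S100a9, 0.95 for S100a9 with Csf3r and 0.93 for S100a8 with Csf3r. Retnlg was less like them, at 0.61 with S100a8 and 0.66 with Csf3r, and closer to Il5ra at 0.87. Il5ra lay between the patterns, with 0.88 to Csf3r. Ngp and Camp were at 0.05 and -0.37 with Retnlg. These coefficients are descriptions over arrays that share genotype and preparation.

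Some genes outside the 10 were high in the same arrays. Ccr3, Siglecf, Cxcr2 and Il1b are drawn beside them and were picked for the plot after their values had been seen. Not all listed granulocyte genes were high. Over the mutant uteri the eosinophil gene Prg3 differed from WT by -0.12 to -0.08. The neutrophil genes Elane, Mpo and Hp differed by -0.09 to -0.01, -0.21 to 0.09 and -1.35 to -0.64. None of these was called. Of 25 further neutrophil genes, 21 were above 0 in DKO and 22 in AHDK, and of 8 eosinophil genes 7 and 6. Ccr3, the eotaxin receptor of eosinophils, was -0.31, -0.05 and 0.93 in AKO uteri, 3.13, 1.42 and 1.78 in DKO uteri, 0.86, 1.77 and 0.43 in AKDH uteri and 2.38, 2.13 and 2.17 in AHDK uteri, against 0.00, -0.31 and -0.27 in WT uteri. Its correlation with Retnlg was 0.97, and AKO 3 was again the single high AKO array. Cxcr2, a chemokine receptor of neutrophils, was -0.05, 0.00 and 0.04 in AKO uteri, 4.35, 0.90 and 0.32 in DKO uteri, 0.56, 0.13 and -0.01 in AKDH uteri and 4.30, -0.03 and 3.22 in AHDK uteri, against -0.11, 0.15 and 0.81 in WT uteri. Il1b, the cytokine interleukin-1 beta, was -0.20, -0.03 and -0.04 in AKO uteri, 2.21, 0.40 and 0.00 in DKO uteri, 0.33, 0.58 and -0.02 in AKDH uteri and 2.00, 0.18 and 2.02 in AHDK uteri, against -0.05, 0.12 and 0.10 in WT uteri. Cxcr2 and Il1b were thus high in DKO 1, AHDK 1 and AHDK 3, the arrays in which S100a8, S100a9 and Csf3r were highest, and neither passed the test against WT (smallest adjusted p 0.251 for Cxcr2 and 0.179 for Il1b, both in AHDK).

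**Figure D3:**
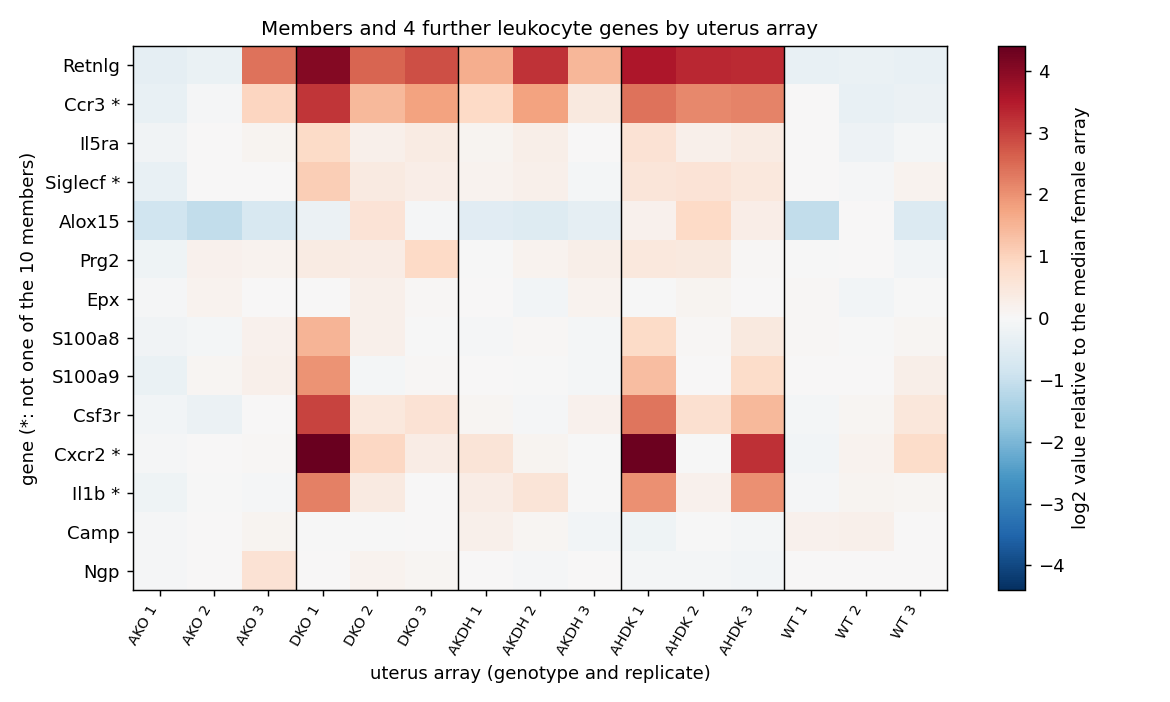
Values of the 10 genes and of Ccr3, Siglecf, Cxcr2 and Il1b (starred) in each uterus array, with genes down the side, arrays along the bottom by genotype and replicate, and colour for the log2 value relative to the median female array. Retnlg and Ccr3 are raised in all 6 Hoxd-null arrays, all 3 AKDH arrays and AKO 3, whereas Csf3r, Cxcr2 and Il1b are strongest in DKO 1, AHDK 1 and AHDK 3.

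By likeness over the 15 uterus arrays, the genes nearest to the mean of the 6 neutrophil genes were Tmem154 at 0.95 and Samsn1, Llph, Ccr3 and Adgre4 at 0.94. Those nearest to the mean of the 4 eosinophil genes were Bap1 and Metap1d at 0.93 and Aqp9, Plaur and Gapt at 0.88. Both means were taken of unscaled values, so genes with a wide range, such as Retnlg, weigh most in them. Symbols of uncharacterised transcripts, olfactory receptors and small RNAs were left out of the ranking. Gapt rose in DKO (1.93, SE 0.24, adjusted p = 0.0178), in AKDH (1.12, SE 0.24, adjusted p = 0.0205) and in AHDK (2.15, SE 0.24, adjusted p = 0.00323), and was 0.52 above WT in AKO (adjusted p = 0.542). As Gapt was picked by its likeness over these same arrays, its calls are not independent of that choice and add no separate support.

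Other granulocyte genes were read from lists that did not contain the 10. Of 25 further neutrophil granule and surface genes, none was called in AKO, DKO or AKDH uterus, and 1 was in AHDK: Itgam, an integrin chain of neutrophils and macrophages, rose by 1.69 (SE 0.28, adjusted p = 0.0123). Over all genes 3.53% were called in AHDK, so 1 of 25 is near that share. The median of the 25 was 0.21 in DKO and 0.55 in AHDK, and the array means were 0.90, 0.09 and -0.13 for DKO uteri and 1.00, 0.31 and 0.74 for AHDK uteri, against -0.32, 0.30 and -0.21 for WT uteri. In the Hoxd-null against Hoxa-null contrast Itgam (1.06, adjusted p = 0.0147) and Mmp9, a neutrophil gelatinase (1.08, adjusted p = 0.0464), were called higher and none lower. Over all genes 4.95% were called in that contrast.

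Of 8 further eosinophil genes, 2 were called in DKO and the same 2 in AHDK uterus, all higher, and none in AKO or AKDH. Over all genes 0.973% were called in DKO and 3.53% in AHDK. Ccr3 rose by 2.30 in DKO (SE 0.44, adjusted p = 0.0397) and by 2.42 in AHDK (SE 0.44, adjusted p = 0.017). Adgre4, an adhesion receptor of myeloid cells, rose by 1.16 in DKO (SE 0.24, adjusted p = 0.0426) and by 1.22 in AHDK (SE 0.24, adjusted p = 0.0214). In the Hoxd-null against Hoxa-null contrast Ccr3 (1.56, adjusted p = 0.0176), Adgre4 (0.70, adjusted p = 0.0347) and Siglecf, an eosinophil surface lectin (0.57, adjusted p = 0.0273), were called higher.

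Among the signals that act on these cells, Csf3, which encodes granulocyte colony-stimulating factor, rose in AKDH uterus by 1.16 (SE 0.17, adjusted p = 0.00418). Its values were 0.87, 0.56 and 1.11 in AKDH against -0.09, -0.48 and -0.38 in WT uteri, and it was lower in Hoxd-null than in Hoxa-null uteri (-0.76, SE 0.12, adjusted p = 0.00602). It was the only called gene of 10 neutrophil attractants and growth factors in the mutant uteri. Over all genes 6.58% were called in AKDH, so 1 of 10 is near that share. In AKDH uterus Csf3r differed from WT by -0.09 (SE 0.56) and Retnlg by 2.40 (SE 0.67, adjusted p = 0.0541). The part of Csf3 in the values of the 10 genes was not tested. Of 12 eosinophil attractants and growth factors, only Il4 was called against WT (DKO, 0.30, adjusted p = 0.0492), where 0.973% of all genes were called in DKO. Ccl11, which encodes eotaxin, was -0.28, 0.00 and 0.76 in AKO uteri, 0.90, 1.30 and 0.62 in DKO uteri, -0.26, 0.18 and 0.87 in AKDH uteri and 0.73, 0.79 and 0.35 in AHDK uteri, against -0.27, -0.44 and -0.40 in WT uteri. Every DKO and AHDK array was above every WT array, and the differences of 1.31 (SE 0.30, adjusted p = 0.0647) and 1.00 (SE 0.30, adjusted p = 0.0868) did not pass the test.

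Other measures also differed among the uterus groups. Of 17 macrophage and dendritic cell genes, 2 were called higher in DKO, 1 in AKDH, 7 in AHDK and 10 in Hoxd-null against Hoxa-null uterus, with none lower. Over all genes 0.973%, 6.58%, 3.53% and 4.95% were called in the same order. The array means of the 17 were -0.01, 0.06 and -0.04 for AKO uteri, 0.74, 0.27 and 0.48 for DKO uteri, -0.20, -0.03 and 0.34 for AKDH uteri and 0.89, 0.74 and 0.40 for AHDK uteri, against -0.01, -0.29 and -0.01 for WT uteri. H2-Aa, an antigen-presenting chain, rose by 1.32 in DKO (adjusted p = 0.0404), by 1.18 in AKDH (adjusted p = 0.0233) and by 1.58 in AHDK (adjusted p = 0.012), and was not called between Hoxd-null and Hoxa-null uteri (0.40, adjusted p = 0.245). Of 9 T and NK cell genes none was called in a mutant uterus, but their median was 0.45 in DKO, with 8 of 9 above 0, and 0.32 in AHDK, with 7 of 9 above 0. Between Hoxd-null and Hoxa-null uteri the T and NK median was 0.49, with 9 of 9 above 0 and none called. The mean of 13 oestrogen-responsive genes was 0.59, 0.09 and 0.37 for AKO uteri, 0.57, 0.57 and -0.47 for DKO uteri, 0.36, 0.13 and -0.80 for AKDH uteri and 0.75, 0.62 and 0.80 for AHDK uteri, against -1.26, 0.70 and -0.30 for WT uteri, with none called in any mutant. The WT females, all labelled as diestrus, were themselves spread in this mean. Of the 13 genes, 12 were above 0 in AKO (median 0.50), 11 in DKO (0.42), 7 in AKDH (0.09) and 9 in AHDK (0.94). This list was thus raised in AKO too. As drawn up, it shares Ltf, Lcn2 and Padi4 with the list of further neutrophil genes, so the means of these lists are not independent. The mean of 6 progesterone-responsive genes was 0.02, 0.54 and 0.26 for AKO uteri, -0.76, -0.49 and 1.31 for DKO uteri, 0.80, 0.11 and 1.07 for AKDH uteri and -0.76, -0.42 and -0.32 for AHDK uteri, against 1.46, -0.59 and 1.37 for WT uteri. Their median difference from WT was -0.75 in DKO and -1.33 in AHDK, with 0 of 6 above 0 in both and none called. The part of these measures in the granulocyte values was not tested.

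The mean of 61 small nuclear, nucleolar and Y RNA genes also moved with genotype in uterus. It was 0.47, 0.24 and 0.00 in AKO uteri, -0.12, 0.15 and -0.02 in DKO uteri, -0.20, -0.45 and -0.37 in AKDH uteri and -0.25, 0.21 and -0.02 in AHDK uteri, against 0.97, 0.54 and 0.65 in WT uteri, so no mutant array reached the lowest WT array. With this mean as a covariate, the Retnlg difference was 1.45 in DKO, 1.62 in AHDK and -0.57 in AKDH, and no member was called against WT. As the groups do not overlap in it, this measure and genotype cannot be told apart against WT. In the Hoxd-null against Hoxa-null contrast, where it overlaps, the same covariate left Retnlg at 2.06 (adjusted p = 0.0156) and Alox15 at 0.97 (adjusted p = 0.023), and Csf3r (1.55, adjusted p = 0.0282) and Il5ra (0.40, adjusted p = 0.0381) were called as well.

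Adding heterozygosity at the other cluster changed none of the 10 genes past the threshold. AHDK differed from DKO uterus by -0.20 to 0.34 over the 10, with Retnlg at 0.25 (SE 0.67), and 0.0251% of all genes were called. At an unadjusted p below 0.05, none of the 10 was found, where 7.47% of all genes were. AKDH differed from AKO uterus by -0.21 to 1.52, the highest being Retnlg (1.52, SE 0.67, adjusted p = 0.465), and 0% of all genes were called, with 2063 (10.3%) at an unadjusted p below 0.05, of the 10 only Retnlg. Without AKO 3, the single AKO array with high Retnlg, this Retnlg difference was 2.43 and passed the test (adjusted p = 0.0495).

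In oviduct the 10 genes did not separate AKO from WT past the threshold. The differences ran from -0.10 (Alox15, SE 0.25) to 0.17 (Retnlg, SE 0.19), with a median of 0.01, and limma called 0% of all genes, 609 genes (3.05%) having an unadjusted p below 0.05 and none of the 10 among them. Retnlg was -0.58, -0.59 and 0.00 in AKO oviducts, against -0.63, -0.31 and -0.72 in WT oviducts. The change of Retnlg in AKO differed between oviduct and uterus by -0.71 (SE 0.84), which did not pass the test.

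Alox15 was the only gene of the 10 called between the female tissues. It was 0.69, 0.61 and 1.52 in WT oviducts, against -1.10, 0.00 and -0.59 in WT uteri, with every oviduct array above every uterus array. The difference of 1.50 (SE 0.28, adjusted p = 0.00096) passed the test, where 23.9% of all genes were called between these tissues. AKO oviducts had Alox15 at 0.90, 0.72 and 0.90, so the AKO and WT oviducts lay in the same range. Without WT oviduct 2, which stood apart, the call remained (1.67, adjusted p = 0.00114), and with the small RNA mean as a covariate it was lost (adjusted p = 0.236). The other 9 genes differed between WT oviduct and WT uterus by -0.38 to -0.03, and none was called. For S100a9 (-0.15, SE 0.40, adjusted p = 0.824) and Ngp (-0.08, SE 0.12, adjusted p = 0.686) every WT oviduct array lay below every WT uterus array. The gap for S100a9 was too small to show at 0.01, and the share of all genes that separated in this way is not given here. This separation is therefore not read as a difference between the tissues.

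In vas deferens the pattern was a different one: S100a8 was high where the Hoxa genes were absent. Its values were 1.23, 0.74 and 1.44 in AKO vasa, -2.33, -0.48 and -1.31 in DKO vasa, 0.97, 0.63 and 1.44 in AKDH vasa and -0.80, -1.86 and -0.68 in AHDK vasa, against -0.02, -1.37 and -0.95 in WT vasa. All 6 Hoxa-null arrays lay above all WT arrays, and the Hoxd-null arrays overlapped WT. S100a8 rose by 1.91 in AKO (SE 0.48, adjusted p = 0.0261) and by 1.79 in AKDH (SE 0.48, adjusted p = 0.0186), and differed from WT by -0.60 in DKO (adjusted p = 0.548) and by -0.33 in AHDK (adjusted p = 0.819).

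The calls against WT depended on single arrays. In AKO the call was lost without WT 2, WT 3, AKO 1 or AKO 3 (differences of 1.62 to 1.87, adjusted p = 0.0672 to 0.112), and in AKDH without WT 2, WT 3 or AKDH 3 (1.49 to 1.70, adjusted p = 0.0508 to 0.0782). AKDH 3 stood apart from its group, and without it the AKDH difference was 1.57 (adjusted p = 0.0535). S100a8 was lower in Hoxd-null than in Hoxa-null vasa (-2.32, SE 0.34, adjusted p = 0.000636), with no overlap between the 6 and 6 arrays. That call held in all 21 alternative settings, with differences from -2.54 to -2.08.

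The promoters of S100a8 and S100a9 are shown because the genes are neighbours whose products form 1 complex, and their values parted in vas deferens. Capitals mark the motifs named for Retnlg and Il5ra above.
S100a8, chr3:90668821-90669120, plus strand: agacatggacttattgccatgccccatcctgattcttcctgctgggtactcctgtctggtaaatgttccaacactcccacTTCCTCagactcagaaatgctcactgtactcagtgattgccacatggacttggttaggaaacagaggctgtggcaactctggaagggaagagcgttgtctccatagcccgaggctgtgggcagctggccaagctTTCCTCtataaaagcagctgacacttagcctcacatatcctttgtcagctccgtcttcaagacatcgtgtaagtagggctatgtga
S100a9, chr3:90695672-90695971, minus strand: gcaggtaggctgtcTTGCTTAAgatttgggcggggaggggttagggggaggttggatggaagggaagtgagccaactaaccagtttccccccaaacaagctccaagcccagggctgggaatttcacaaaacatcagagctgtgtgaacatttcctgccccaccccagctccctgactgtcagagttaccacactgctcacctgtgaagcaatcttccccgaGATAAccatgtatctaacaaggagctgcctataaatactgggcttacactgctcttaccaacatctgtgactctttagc
The S100a8 window held 2 PU.1 matches and the S100a9 window 1 C/EBP and 1 GATA match. The genes are read from opposite strands.

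S100a9 stayed within -0.23 and 0.45 over all vas deferens arrays. Its differences from WT were 0.10 in AKO (SE 0.13), -0.09 in DKO (SE 0.13), 0.26 in AKDH (SE 0.13) and -0.06 in AHDK (SE 0.13), and none passed the test (smallest adjusted p 0.174, in AKDH). Between Hoxd-null and Hoxa-null vasa the difference was -0.26 (SE 0.09, adjusted p = 0.0698), the same sign as for S100a8 at a smaller size. The correlation of S100a8 with S100a9 was 0.67 over the 15 vas arrays, and that of S100a8 with Csf3r was -0.11.

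The other neutrophil genes of the 10 did not show this pattern in vas deferens. Retnlg was 0.03, 0.41 and 0.79 in AKO vasa, -0.11, -0.26 and -0.53 in DKO vasa, -0.38, -0.11 and -0.14 in AKDH vasa and -0.17, 0.07 and 0.22 in AHDK vasa, against -0.52, 0.09 and 0.56 in WT vasa, with no call. Csf3r was 0.15, 0.02 and 0.32 in AKO vasa, -0.06, -0.18 and -0.11 in DKO vasa, -0.02, -0.11 and -0.34 in AKDH vasa and -0.18, 0.13 and 0.06 in AHDK vasa, against 0.11, 0.39 and 0.28 in WT vasa. Csf3r fell in AKDH by 0.42 on the log2 scale (SE 0.11, adjusted p = 0.0177), and was -0.38 from WT in DKO (SE 0.11, adjusted p = 0.0687). The AKDH call was lost without WT 2 (-0.35, adjusted p = 0.0746) or without AKDH 3 (-0.32, adjusted p = 0.0556).

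Epx was -0.09, -0.12 and -0.13 in AKDH, against 0.05, 0.01 and 0.17 in WT vasa. It fell by 0.19 on the log2 scale (SE 0.05, adjusted p = 0.0169), and without WT 3 the difference was -0.14 (adjusted p = 0.0608). Without AKDH 3, which stood apart, the Epx difference was -0.18 (adjusted p = 0.04). The median of all genes in AKDH vas was itself -0.05, and with each array centred on its own median the differences were -0.15 for Epx and -0.38 for Csf3r, both still called. Ngp stayed within -0.09 and 0.14, apart from 0.77 in AHDK 3, and Camp within -0.22 and 0.17.

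Alox15 was widely spread within the mutant vas groups. It was -0.40, -0.27 and 1.95 in AKO vasa, 1.23, 0.28 and -0.54 in DKO vasa, -0.22, 0.55 and -0.73 in AKDH vasa and -0.57, 0.97 and 0.63 in AHDK vasa, against 0.94, 1.18 and 1.14 in WT vasa. WT was narrow, and in AKDH all arrays lay below it, yet the difference of -1.22 (SE 0.63, adjusted p = 0.178) did not pass the test, and it was -0.92 without AKDH 3. Prg2 and Il5ra differed from WT by no more than 0.11 in either direction in any mutant vas.

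Of the 10 genes, 1 was called in AKO (S100a8), none in DKO, 3 in AKDH (S100a8 higher, Csf3r and Epx lower) and none in AHDK vas. Over all genes the share called was 9.35% for AKO, 5.87% for DKO, 24.3% for AKDH and 4.15% for AHDK, so 3 of 10 in AKDH is near the share of all genes. At an unadjusted p below 0.05, 2 of the 10 were found for AKO, 1 for DKO, 3 for AKDH and 2 for AHDK. The share of all genes at that threshold was 23% for AKO, 20.7% for DKO, 37.9% for AKDH and 17.7% for AHDK, so these counts are near or below it. Between Hoxd-null and Hoxa-null vasa only S100a8 of the 10 was called, where 21.9% of all genes were, and it was the only one of the 10 to separate the groups downward, where 2.89% of all genes did. The median difference of the 10 was -0.03 for AKO, -0.10 for DKO, -0.13 for AKDH and -0.04 for AHDK vas.

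**Figure D4:**
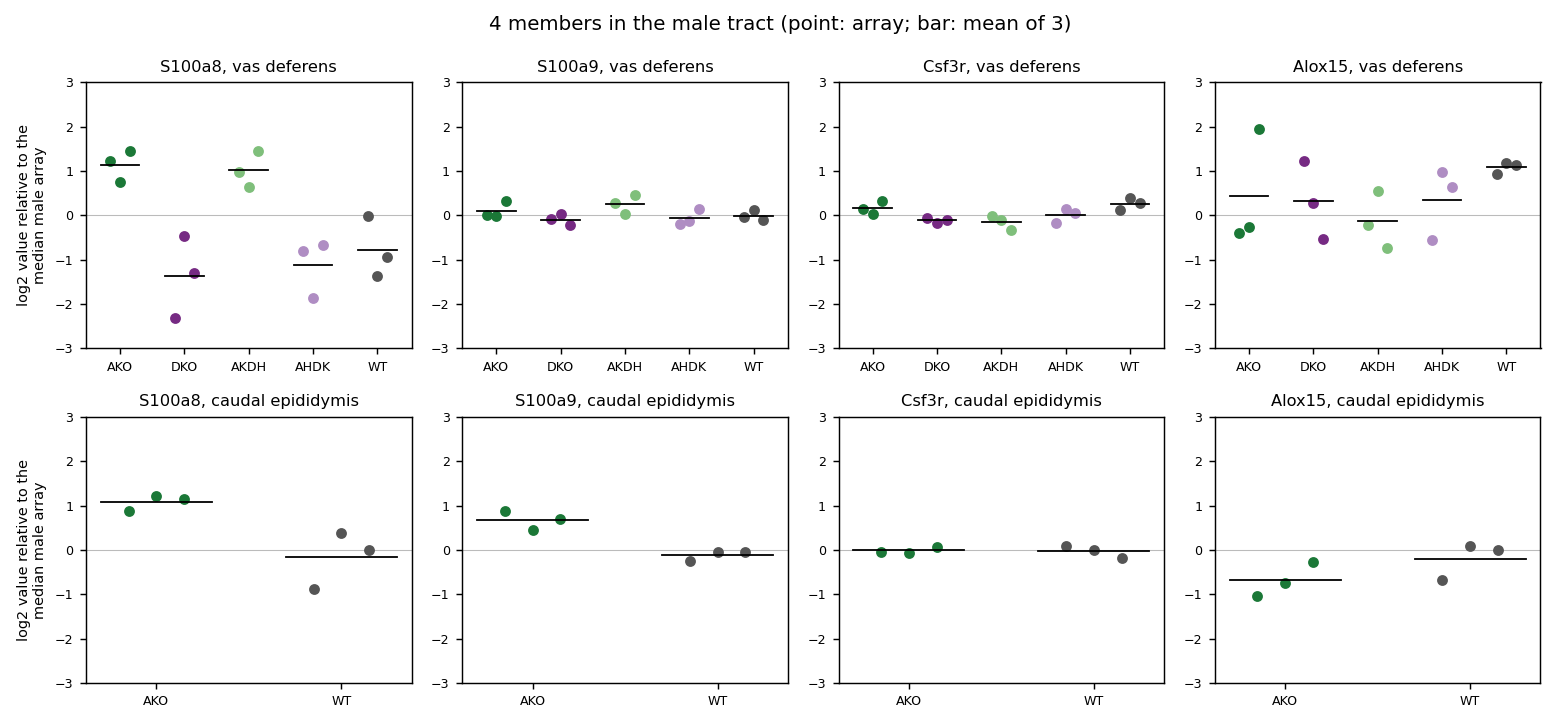
Values of S100a8, S100a9, Csf3r and Alox15 in vas deferens (upper row) and caudal epididymis (lower row), with a point for each array and a bar at the mean of 3 (vertical axis: log2 value relative to the median male array). S100a8 lies between 0.63 and 1.44 in AKO and AKDH vas, above all WT arrays, while S100a9 is above WT in AKO epididymis (0.46 to 0.87).

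Among 25 further neutrophil genes in vas deferens, 2 were called higher and 1 lower in AKO, 2 lower in DKO, 2 higher and 5 lower in AKDH, and 2 higher and 1 lower in AHDK. Over all genes the share called was 9.35% for AKO, 5.87% for DKO, 24.3% for AKDH and 4.15% for AHDK. The AKO, DKO and AKDH counts are thus near the share of all genes. Those called higher were Hp and Lrg1, secreted proteins that epithelia and liver also make, and they rose in AHDK as well as in both Hoxa-null groups. Hp rose by 1.43 in AKO (SE 0.38, adjusted p = 0.0325), by 1.69 in AKDH (adjusted p = 0.00742) and by 1.98 in AHDK (adjusted p = 0.014). Trem1, a receptor of neutrophils and monocytes, fell in all 4 mutants, by between 0.62 (AKO) and 0.70 (AHDK) on the log2 scale. Between Hoxd-null and Hoxa-null vasa 1 of the 25 was called higher and 2 lower, where 21.9% of all genes were called. Lcn2, which encodes lipocalin 2 of neutrophil granules and epithelia, was lower in Hoxd-null vasa (-0.85, SE 0.16, adjusted p = 0.00284), as S100a8 was. Mmp9 went the other way and was higher (0.79, SE 0.18, adjusted p = 0.00894). Csf3 rose in DKO by 0.48 (adjusted p = 0.018) and in AHDK by 0.74 (adjusted p = 0.00303), the Hoxd-null groups, unlike in uterus, where it rose in AKDH. None of 8 further eosinophil genes was called in a mutant vas against WT.

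Of 3 epididymis markers, Rnase9 was high in the same vas deferens groups as S100a8. The mean of the 3 was 0.12, 0.05 and -0.04 in AKO vasa, -1.39, -1.12 and -1.29 in DKO vasa, 0.07, 0.44 and -0.21 in AKDH vasa and -0.96, -1.03 and -0.11 in AHDK vasa, against -1.51, -1.72 and -1.09 in WT vasa. That mean followed Rnase9, which rose by 4.57 in AKO (adjusted p = 0.000193), by 4.36 in AKDH (adjusted p = 8.88e-05) and also by 2.31 in AHDK (adjusted p = 0.0158), where S100a8 was -0.33 from WT. Npy fell in AKDH by 0.46 on the log2 scale (adjusted p = 0.0268), and neither Npy in the other mutants nor Defb22 in any was called. The 17 macrophage and dendritic genes had array means of 0.35, -0.02 and 0.20 in AKO and -0.02, -0.07 and -0.29 in AKDH, against 0.21, 0.34 and -0.10 in WT vasa. The part of either list in the S100a8 values was not tested.

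In caudal epididymis both calprotectin genes were higher in AKO, short of the threshold. S100a8 was 0.88, 1.21 and 1.14 in AKO, against -0.88, 0.39 and 0.00 in WT epididymides, a difference of 1.24 (SE 0.32, adjusted p = 0.144). S100a9 was 0.87, 0.46 and 0.71 in AKO, against -0.25, -0.04 and -0.04 in WT epididymides, a difference of 0.79 (SE 0.12, adjusted p = 0.0608). The groups did not overlap for either gene, the only 2 of the 10 that separated upward, where 13.1% of all genes did, and the differences without AKO 1, which stood apart, were 1.34 for S100a8 and 0.69 for S100a9. None of the 10 genes was called, where 0.782% of all genes were, and 2 had an unadjusted p below 0.05, near the 16% of all genes that did. The other 8 differed by -0.49 (Alox15, SE 0.27) to 0.10 (Prg2, SE 0.11).

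The AKO change of S100a9 was larger in epididymis than in vas deferens by 0.68 (SE 0.19, adjusted p = 0.0388), the only one of the 10 so called, where 7.22% of all genes were. Without the arrays that stood apart this was 0.59 and did not pass the test (adjusted p = 0.0679). For S100a8 the difference between the changes was -0.67 (SE 0.65, adjusted p = 0.633). In WT males none of the 10 genes was called between epididymis and vas deferens, where 28.1% of all genes were, with 2 of the 10 at an unadjusted p below 0.05, where 37.2% of all genes were. S100a8 differed by 0.61 (SE 0.46) between WT epididymis and WT vas, Alox15 by -1.28 (SE 0.57, adjusted p = 0.111) and Csf3r by -0.29 (SE 0.11, adjusted p = 0.0561).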

How the data were processed

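The values deposited by the authors are processed log values for 28856 probe sets and 42 arrays, taken as log2 and already centred per probe set, as deposited. Their base, summarisation, normalisation and genome build were not given in the sources used here. Per the labels, 300 ng of column-purified RNA was copied to cDNA and biotin-labelled. Every probe set has a median of 0 over the 21 female and over the 21 male arrays, array medians run from -0.05384 to 0.03712, and higher was taken as more RNA. The annotation gives 21789 probe sets 1 symbol, 1621 several and 5446 none, and 21698 gene IDs matched RefSeq. Probe sets of a gene were averaged (19938 genes, 999 with several).

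limma 3.58.1 in R 4.3.3 (lmFit, eBayes) used every array of the tissue, or every array of the sex for comparisons between tissues, with Benjamini-Hochberg adjustment over all genes and calls below 0.05. It was tested on simulated data. The labels call the arrays biological replicates without naming animals, so p-values reflect only the spread among the arrays given, and the number of arrays limits precision. Absolute signal is lost, so a planned filter on dim probe sets gave way to one on spread. The members and lists were chosen with earlier results of these data known. Named beside the members are up to 4 genes of each list and comparison with the smallest adjusted p, the 5 genes most like each member mean, targeted genes, and genes said to be picked after their values were seen. Same-numbered arrays deviated together (all 3 correlations over 0.1) only for AKO against WT oviduct (0.22, 0.29, 0.48) and WT epididymis against WT vas deferens (0.29, 0.18, 0.28). No pair of arrays was identical.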

Additional observations from a re-analysis of the deposited data

Results flagged for a closer look

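The AKO change of S100a9 differed between epididymis and vas deferens by 0.68 (SE 0.19, limma adjusted p = 0.0388), by a test of the difference itself over all male arrays. S100a9 averaged 0.68 in AKO and -0.11 in WT epididymides (SD 0.21 and 0.12), and 0.10 in AKO and -0.01 in WT vasa (SD 0.19 and 0.11), with 3 arrays a group. The call held in 10 of 21 alternative settings, with differences between 0.45 and 0.80. Among the arrays whose removal ended it was AKO epididymis 1, which stood apart (0.59, adjusted p = 0.0928), as were vas deferens WT 1, WT 2, AKO 1 and AKO 2 and epididymis WT 1, WT 2 and AKO 3 (0.61 to 0.72).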

How the results depend on the processing

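Under 8 or 9 other settings and with each array left out, 191 of 243 counts of called members stayed within 1.5 times the reported count, and of 2791 values of members none that was called changed sign. Quantile normalisation gave 0 called members in DKO and 0 in AHDK uterus. Fitting only the groups compared gave 0 in DKO uterus, 1 in AKDH vas, 1 between Hoxd-null and Hoxa-null uterus and 1 between WT epididymis and vas. The upper genes by spread gave 1 in AKDH and 2 in AHDK uterus, 1 in AKO epididymis and 1 between WT male tissues. The replicate block gave 0 in DKO uterus and 2 in AHDK uterus, where the numbers do not pair the arrays, and changed no call in the paired comparisons. The small RNA covariate gave 0 in DKO and AHDK uterus, 1 in AKO epididymis, 4 between Hoxd-null and Hoxa-null uterus and 0 between WT oviduct and uterus. Array centring gave 1 in DKO vas; leaving out the arrays that stand apart gave 1 in DKO vas, 1 in AKDH vas and 1 between WT male tissues. With 1 array left out, counts were 0 in DKO uterus, 0 to 2 in AHDK uterus, 0 to 1 in AKO vas, 1 to 3 in AKDH vas, 0 to 4 between Hoxd-null and Hoxa-null uterus, 1 to 3 between the vasa, and 0 to 1 for AKDH against AKO uterus and between WT male tissues. For a count that moved, the cause was not tested. Signal over background is lost, so low probe sets cannot be told from unexpressed genes.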
